A study of Mus musculus with 6 samples.

Results

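The genes described here make and remove superoxide and hydrogen peroxide. They are Sod1, Sod2 and Sod3, Cat, Gpx1, Gpx3 and Gpx4, Prdx3, and the NADPH oxidase genes Cybb and Nox4. The 10 genes were taken by name, with earlier results of these data known, and all 10 had a row in the table of 17447 gene symbols. RNA was sequenced from hearts of wild-type mice in 6 libraries, 3 after sham surgery and 3 with chronic kidney disease (CKD). CKD was produced by subtotal nephrectomy: both poles of the left kidney were cut away, and the right kidney was taken out in a later operation. Sham mice were anaesthetised and had the abdomen opened and the kidneys exposed, with no tissue removed. All libraries carry the same batch label, and the labels give no age, sex or strain and no interval between surgery and sampling. Levels are read in the 3 sham hearts alone, for the reason given with the check of the row labels.

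Superoxide forms when an electron is passed to oxygen, by the respiratory chain as a by-product or by NADPH oxidases as their main product. Superoxide dismutases turn it into hydrogen peroxide, and catalase, glutathione peroxidases and peroxiredoxins reduce peroxides to water or alcohols. Each compartment has its own set of enzymes, because superoxide crosses membranes poorly. In the heart, where mitochondria fill much of the muscle cell, loss of the mitochondrial dismutase is known to cause dilated cardiomyopathy in mice.

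The 3 glutathione peroxidases share a feature that was not used to choose them, the rare amino acid selenocysteine at the active site, which is encoded by a TGA codon that elsewhere ends a protein. They are shown because the TGA makes their protein output depend on selenium and on the selenoprotein synthesis genes described further on. The coding sequence around that codon (capitals) was read from the principal GENCODE M21 transcript of each gene, and the other 7 members have no such codon there. It is codon 47 in Gpx1, codon 73 in the Gpx4 transcript and codon 73 in Gpx3.
Gpx1: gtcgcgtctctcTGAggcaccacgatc
Gpx4: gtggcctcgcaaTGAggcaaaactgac
Gpx3: gtagccagctacTGAggtctgacagac

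Promoter windows from RefSeq (assembly GRCm38.p6, 250 bases before to 50 after the annotated start) were found for 9 of the 10 genes. Those of Sod2, Gpx3 and Cybb are shown, as a gene with a high level, the gene of high level that varied most between hearts, and a gene with a low level. They lie at chr17:13007589-13007888 on the plus strand, chr11:54902604-54902903 on the plus strand and chrX:9469275-9469574 on the minus strand. Capitals mark the GC box GGGCGG, searched on both strands with overlapping matches counted. A TATA box, TATAAA, and the core of the antioxidant response element, TGACNNNGC, were searched in the same way and had no match in these windows.
Sod2: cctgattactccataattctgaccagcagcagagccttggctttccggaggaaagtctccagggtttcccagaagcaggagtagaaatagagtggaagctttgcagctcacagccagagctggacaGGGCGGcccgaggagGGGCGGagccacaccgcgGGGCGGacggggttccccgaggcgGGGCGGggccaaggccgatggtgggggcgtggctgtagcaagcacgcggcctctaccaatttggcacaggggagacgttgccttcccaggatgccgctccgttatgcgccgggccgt
Gpx3: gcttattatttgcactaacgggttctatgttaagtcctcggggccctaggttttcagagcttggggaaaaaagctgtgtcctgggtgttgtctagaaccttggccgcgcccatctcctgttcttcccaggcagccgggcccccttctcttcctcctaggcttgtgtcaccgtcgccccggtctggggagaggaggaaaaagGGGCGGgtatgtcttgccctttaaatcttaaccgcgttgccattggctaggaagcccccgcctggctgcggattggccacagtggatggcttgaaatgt
Cybb: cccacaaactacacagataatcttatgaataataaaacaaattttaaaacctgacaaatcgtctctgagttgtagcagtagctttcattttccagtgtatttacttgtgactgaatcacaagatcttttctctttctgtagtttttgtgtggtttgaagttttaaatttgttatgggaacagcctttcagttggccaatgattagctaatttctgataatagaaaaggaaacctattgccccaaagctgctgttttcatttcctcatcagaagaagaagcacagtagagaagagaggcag

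The Sod2 window held 4 GC boxes and was 64.3% G and C, that of Gpx3 held 1 and was 56.3%, and that of Cybb held 0 and was 35.3%. Over all 32851 windows in the RefSeq table the median G and C content was 52.7%, and 35.7% held a GC box, 13.6% a TATA box and 12.4% the antioxidant response element core. Of the members, Sod1 alone held the antioxidant response element core, beside 4 GC boxes and 1 TATA box. Nox4, the lowest member, had a window of 68.3% G and C with 1 GC box. These matches describe the letters of the windows and not the binding of a factor.

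Before any level was read, the row labels were checked. Spearman's rho over the 17447 rows ranged from 0.982 to 0.985 for pairs of sham columns and from 0.984 to 0.987 for pairs of CKD columns. For a sham column against a CKD column it ranged from -0.0586 to -0.0528. The row of Myh6, the main myosin heavy chain of the mouse heart, showed 362529, 443278 and 474768 counts under sham but 0, 0 and 1 under CKD. The member rows behaved likewise. Cat showed 3084, 3601 and 4046 counts under sham but 5, 3 and 6 under CKD, and Sod1 showed 2269, 2530 and 3262 but 11, 4 and 11. The rows of Cybb (454, 420 and 510) and Nox4 (300, 357 and 284) were higher in CKD than in sham. The symbols of the CKD columns do not go with their values, so none of these differences is read as a change in CKD hearts, and no test of CKD against sham was made.

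**Figure D1:**
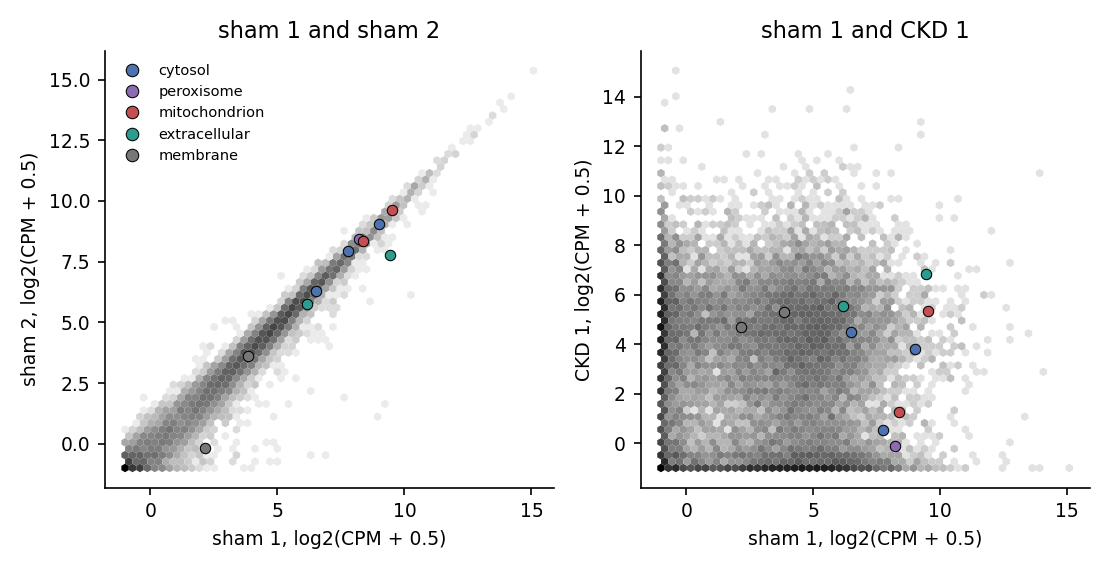
Each axis is log2(CPM + 0.5), hexagons are shaded by the number of genes on a log scale, and filled circles are the 10 genes coloured by compartment. Sham 1 and sham 2 follow a diagonal on the left. Sham 1 and CKD 1 do not on the right, where the members lie at widely different heights.

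The sham columns summed to 10480788, 10474487 and 12669724 counts, so that 3 counts, the limit allowed by a count of 0, equal 0.286, 0.286 and 0.237 CPM (counts per 1000000 counts of the column). The tissue matched its label: all 12 cardiomyocyte markers exceeded 100 CPM, while 1 of 9 kidney markers (Cubn) reached 1 CPM. The hearts were not alike in other cell types. Summed atrial markers stood at 3130, 510 and 933 CPM in sham 1, 2 and 3, and fibroblast markers at 2194, 1152 and 2516 CPM. Macrophage and monocyte markers summed to 712, 563 and 935 CPM, and erythroid markers to 133, 107 and 515 CPM. In bulk tissue, fewer cells of a type and less RNA per cell cannot be told apart. The part of these differences in the members' values was not tested.

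Together the 10 genes took 0.296%, 0.259% and 0.261% of the counts in sham 1, 2 and 3. Their median was 279 CPM, against 10.5 CPM for all rows, and 6 of the 10 exceeded 100 CPM, as did 9.73% of all rows. The 8 genes that remove superoxide or peroxide exceeded at least 84.5% of the rows (Sod3), and the oxidase genes 56.6% (Cybb) and 35.3% (Nox4).

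**Figure D2:**
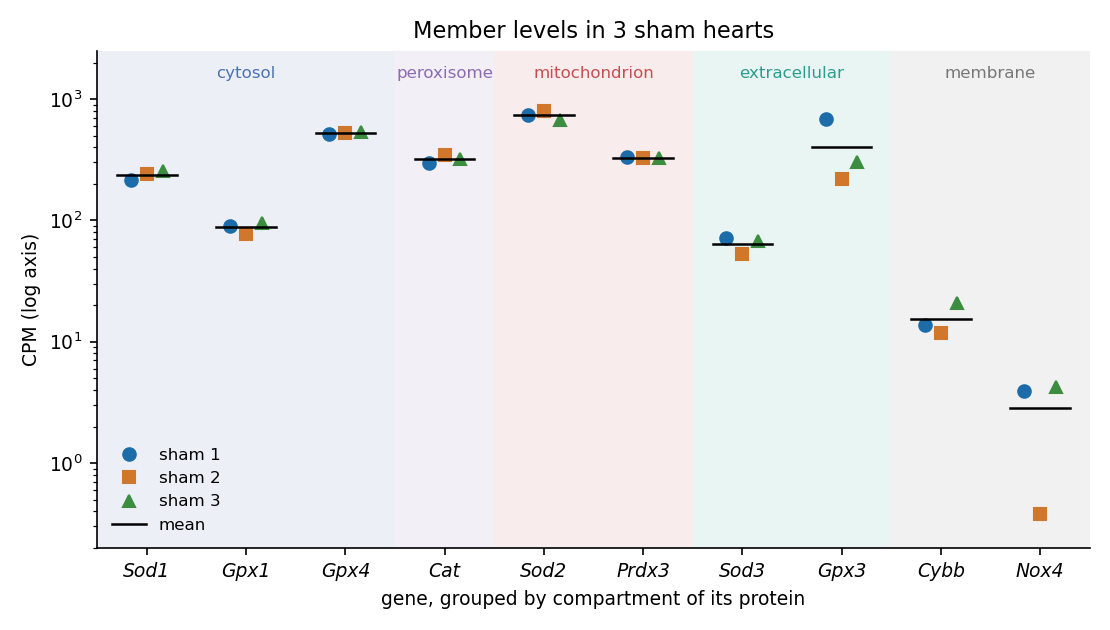
The vertical axis is CPM on a log scale, and the genes are grouped by where their protein is found. Each symbol is 1 sham heart and each bar a mean. Sod2 is highest, from 675 to 792 CPM, and Nox4 lowest, with sham 2 at 0.382 CPM far below the other hearts.

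Sod2, the manganese dismutase of the mitochondrial matrix, held 7694, 8292 and 8554 counts, or 734, 792 and 675 CPM (mean 734 ± 58.2, SD, n = 3). It was the gene of rank 154 in the whole table. Sham 2 was highest and sham 3 lowest, within 1.17-fold of each other. Prdx3, the peroxiredoxin of the same compartment, which uses mitochondrial thioredoxin to reduce hydrogen peroxide, held 3478, 3435 and 4126 counts, or 332, 328 and 326 CPM. These values lay within 1.02-fold of each other, and the mean was 328.5 ± 3.13 CPM (SD, n = 3).

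Among the cytosolic enzymes, Gpx4 reduces lipid peroxides inside membranes and is the main brake on ferroptosis. It stood at 510, 523 and 539 CPM (mean 524 ± 14.2, SD, n = 3), and the hearts lay within 1.06-fold of each other. Cytosolic, mitochondrial and nuclear forms come from this 1 gene and are not separated by gene counts, and GENCODE lists 1 numbered pseudogene of it, so its level is uncertain to that extent. Sod1, the copper-zinc dismutase of the cytosol, stood at 216, 242 and 257 CPM (mean 238 ± 20.7). Gpx1, the most widespread glutathione peroxidase, stood at 90.0, 77.5 and 95.0 CPM (mean 87.5 ± 8.98).

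Cat encodes catalase, the haem enzyme of peroxisomes that splits hydrogen peroxide without a reducing partner. It stood at 294, 344 and 319 CPM in sham 1, 2 and 3 (mean 319 ± 24.8, SD, n = 3). Cat and Gpx1 are also abundant in red cells. In sham 3 the erythroid sum was 515 CPM, against 133 and 107 in sham 1 and 2. Cat in sham 3 lay between the other hearts, and Gpx1 was highest there by a small margin over sham 1. Of the 10 members 5, Sod1 among them, were highest in sham 3 as CPM, as were 42.0% of all rows with at least 1 CPM. The part of red cells in these values was not tested.

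Outside the cell, Gpx3 is the secreted plasma glutathione peroxidase. It held 7233, 2308 and 3847 counts, or 690, 220 and 304 CPM (mean 405 ± 251, SD, n = 3). Sham 1 was 3.13 times sham 2, and the mean was 262 CPM without sham 1. Sod3, the secreted dismutase that binds to the matrix and vessel wall, stood at 71.9, 52.8 and 68.0 CPM (mean 64.3 ± 10.1), lowest in sham 2.

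The oxidase genes were the lowest. Cybb encodes gp91phox (NOX2), the catalytic subunit of the phagocyte oxidase, also present in muscle and endothelial cells. It held 145, 123 and 265 counts, or 13.8, 11.7 and 20.9 CPM (mean 15.5 ± 4.81, SD, n = 3). The 95% exact Poisson interval of sham 3 was 18.5 to 23.6 CPM, above those of sham 1 (11.7 to 16.3) and sham 2 (9.76 to 14.0). Such intervals cover counting error only.

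Nox4, an oxidase that mostly releases hydrogen peroxide and needs no cytosolic activator, held 41, 4 and 54 counts, or 3.91, 0.382 and 4.26 CPM. The exact Poisson interval of sham 2 was 0.104 to 0.978 CPM, below those of sham 1 (2.81 to 5.31) and sham 3 (3.20 to 5.56). Its mean of 2.85 ± 2.15 CPM (SD, n = 3) therefore describes no single heart, and without sham 2 it was 4.09.

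Because longer transcripts give more reads, levels of different genes were compared as CPM per kb of coding sequence in the principal GENCODE M21 transcript. The order was Sod2 (1102 ± 87.5), Gpx4 (887 ± 24.0), Gpx3 (597 ± 370), Sod1 (516 ± 44.7), Prdx3 (426 ± 4.06), Cat (202 ± 15.7), Gpx1 (145 ± 14.9), Sod3 (85.3 ± 13.4), Cybb (9.06 ± 2.81) and Nox4 (1.64 ± 1.24), each SD with n = 3. Of the 9 pairs of neighbours, 2 had overlapping ranges, Gpx4 with Gpx3 and Gpx3 with Sod1. The other 7 were in the same order in all 3 hearts with no overlap. An exact two-sided sign-flip permutation test over 3 hearts cannot give a p below 0.25, so no test of these orders is given.

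The order of the genes at the top depended on the length used. Per kb of whole transcript, Gpx4 (547 ± 14.8) came first and Sod1 (372 ± 32.2) next, while Sod2 (125 ± 9.94) came after Gpx3 and Prdx3, its range overlapping that of Cat (122 ± 9.48). The Sod2 transcript is annotated at 5861 bases, of which 666 are coding, and that of Sod1 at 641, of which 462 are coding. With the Sod1 length kept, the genes would be level at a Sod2 transcript of 1973 bases. Which transcripts these hearts used was not analysed here. Gpx1, Sod3, Cybb and Nox4 kept the last places in that order on all 3 scales.

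**Figure D3:**
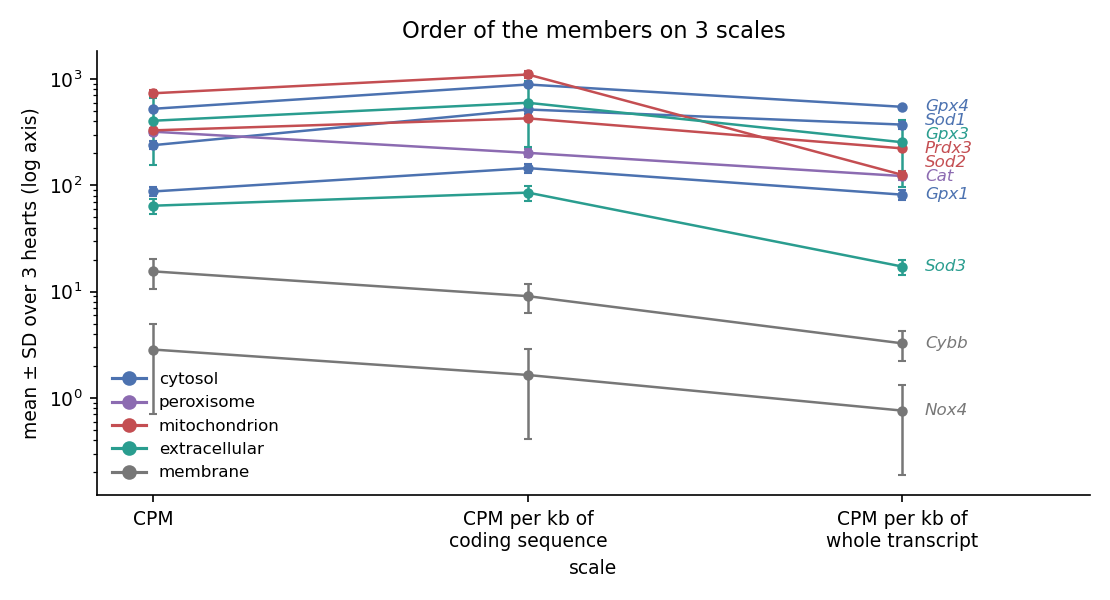
Each line is 1 gene, with its mean and SD over 3 sham hearts on a log axis, as CPM, as CPM per kb of coding sequence and as CPM per kb of whole transcript. The Sod2 line falls from the top to just above Cat with the whole transcript, and Gpx1, Sod3, Cybb and Nox4 stay lowest on each scale.

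Within families, ratios were taken heart by heart. Per coding kb, Sod2 was above Sod1 by a log2 ratio of 1.23, 1.18 and 0.86 in sham 1, 2 and 3 (mean 1.09 ± 0.20, SD, n = 3), but per kb of whole transcript the mean was -1.57. Sod1 exceeded Sod3 by 2.61 ± 0.30 and Sod2 exceeded Sod3 by 3.70 ± 0.33, in 3 of 3 hearts on every scale. The extracellular dismutase was thus the lowest of its family in each heart.

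Among the selenium-dependent peroxidases, Gpx1 lay below Gpx4 by a log2 ratio of -2.53, -2.78 and -2.53 per coding kb, with a similar mean on every scale (-2.59 as CPM and -2.75 per kb of whole transcript). Gpx1 was also below Gpx3 in 3 of 3 hearts, at -2.77, -1.34 and -1.51 per coding kb. Gpx4 and Gpx3 changed order between hearts: the log2 ratio of Gpx4 to Gpx3 per coding kb was -0.24, 1.45 and 1.03 in sham 1, 2 and 3. Per kb of whole transcript it was above 0 in all 3 hearts, at 0.30 in sham 1.

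Along the mitochondrial pathway from superoxide to water, Prdx3 lay below Sod2 by -1.37 ± 0.11 (log2 ratio per coding kb, SD, n = 3), and above it by 0.83 per kb of whole transcript. Cat lay below Prdx3 by -1.08 ± 0.12 per coding kb. As CPM these 2 genes were level, at a log2 ratio of -0.045, with Cat above Prdx3 in 1 of 3 hearts. Nox4 lay below Cybb by -1.84, -4.96 and -2.32 per coding kb, in 3 of 3 hearts on every scale.

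Summed by compartment per coding kb, the cytosolic genes (Sod1, Gpx1 and Gpx4) came to 1481, 1537 and 1626 CPM per kb in sham 1, 2 and 3. The mitochondrial genes (Sod2 and Prdx3) came to 1533, 1614 and 1436 CPM per kb. The mitochondrial sum was above the cytosolic one in sham 1 and sham 2 and below it in sham 3, so the means of 1548 ± 73.1 and 1528 ± 89.0 (SD, n = 3) were not apart beyond the spread of the hearts. As CPM the mitochondrial sum was the higher one in all 3 hearts, at 1066, 1120 and 1001 CPM against 817, 843 and 891 CPM for the cytosol. Per coding kb, the extracellular genes (Sod3 and Gpx3) followed at 1113, 395 and 538 CPM per kb, then Cat of the peroxisome at 202 ± 15.7 and the oxidase genes of the membranes at 10.7 ± 3.81.

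Most of the extracellular sum and its spread came from Gpx3. Per coding kb and among these members, the place of Gpx4 decided the top of the order. With Gpx4 counted in the mitochondrion the cytosolic sum was 661 and the mitochondrial sum 2415 CPM per kb. The sums hold the members alone and do not rank the compartments as wholes. Other enzymes of the same compartments are left out, such as Prdx2 (342 CPM) and Prdx5 (393 CPM). Per kb of whole transcript the cytosol led with 1000.3 against 347 for the mitochondrion. The membrane sum was the lowest in each of these settings.

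The hearts differed from each other to very unequal degrees. The coefficient of variation (CV, SD over mean) between hearts was 0.953% for Prdx3 and 2.70% for Gpx4, then 7.76% to 10.3% for Cat, Sod2, Sod1 and Gpx1. It was 15.7% for Sod3, 31.0% for Cybb, 61.9% for Gpx3 and 75.3% for Nox4. The members' median was 9.46%, against 11.8% for the 12491 rows with at least 1 CPM. Counting alone would give 1.65% for Prdx3, 7.50% for Cybb and 17.4% for Nox4. At least 2 times the counting value was reached by 9 of the 10 members, but the share of all rows that did so was not computed. The count is therefore not read as a trait of the members. For Sod2 counting alone would give 1.11%, and genes within 2 times of its CPM had a median CV of 7.50%. For Cybb and Nox4 the medians of such genes were 12.4% and 27.6%.

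CV falls with level, so each gene was also set beside all genes within 2 times of its own CPM. Gpx3 exceeded 99.2% of 624 such genes, Nox4 95.1% of 1961 and Cybb 92.1% of 4310. Prdx3 exceeded 1.16% of 775 and Gpx4 8.01% of 462. Scaling by TMM, which sets hearts by a trimmed mean of ratios, raised the CV of Prdx3 to 4.11% and that of Gpx4 to 4.56%, so that how steady they were depends on the scaling. Gpx3, Nox4 and Cybb stayed at 60.1%, 74.4% and 28.1% under TMM.

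**Figure D4:**
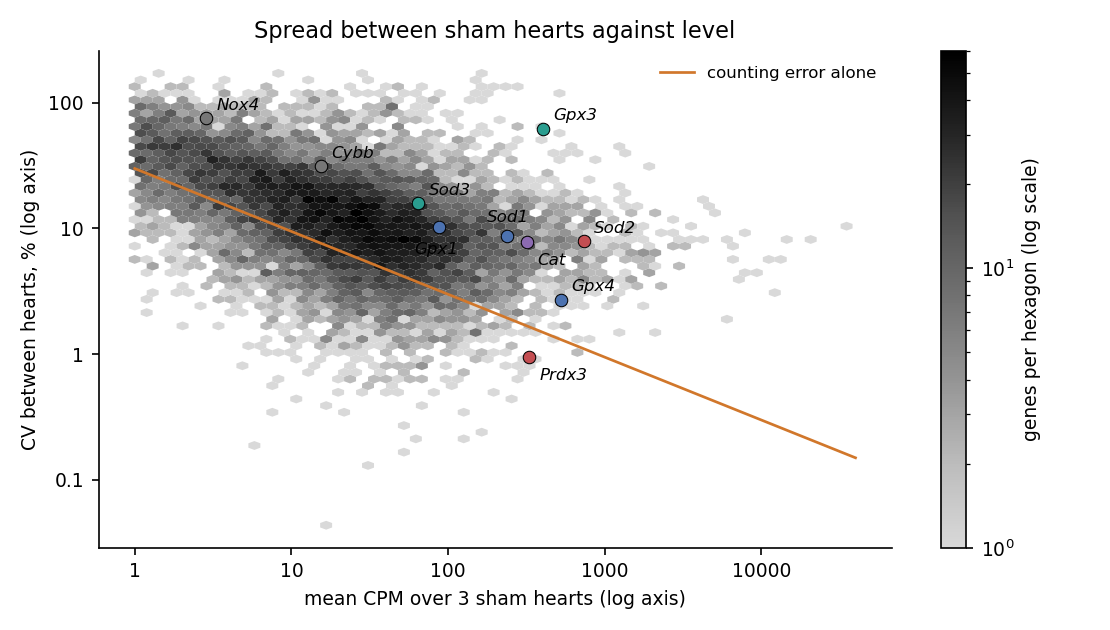
Each hexagon counts genes with at least 1 CPM, shaded on a log scale, by mean CPM and by CV between the 3 sham hearts, both on log axes. The line is the CV from counting alone at the mean depth. Gpx3, at a CV of 61.9%, stands above most genes of its level, and Prdx3, at 0.953%, lies under the line.

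In which heart a member was highest was not the same for all. Sham 2 was lowest for Gpx1, Sod3, Gpx3, Cybb and Nox4 under each of 4 scalings. As CPM by column totals, sham 2 was also lowest for 48.8% of all rows with at least 1 CPM. Shares of all rows were not taken under the other scalings. Sod2 and Cat were highest in sham 2 under each of these scalings. As CPM by column totals, so were 20.98% of all rows with at least 1 CPM and 11 of the 12 cardiomyocyte markers. The cardiomyocyte markers summed to 134494, 148504 and 133105 CPM in sham 1, 2 and 3. Sod2 had the order of hearts of this sum, while Cat was lowest in sham 1. The part of cardiomyocytes in the Sod2 and Cat values was not tested. Sod1, Gpx4 and Prdx3 changed their highest heart between scalings.

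For Cybb, the summed markers of macrophages and monocytes had the same order of hearts, as did those of fibroblasts, endothelial cells (1642, 1346 and 1786 CPM) and erythroid cells. All 16 macrophage and monocyte markers were highest in sham 3, as were 42.0% of all rows with at least 1 CPM, and 13 of the 16 were lowest in sham 2. Lyz2, the lysozyme of macrophages, stood at 240.2, 170 and 279 CPM, and C1qa, a complement subunit, at 74.9, 64.0 and 101 CPM. Cybb equalled 1.94%, 2.09% and 2.24% of the summed macrophage and monocyte markers in sham 1, 2 and 3, a 1.15-fold range where Cybb itself spanned 1.78-fold. Such a share was not taken for the other lists with the same order of hearts. The neutrophil list summed to 11.2, 11.1 and 6.24 CPM, lowest in sham 3. Its 2 highest genes, S100a9 (42, 43 and 17 counts) and Csf3r (38, 26 and 42 counts), had different orders of hearts. The part of any of these cell types in the Cybb values was not tested.

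For Gpx3, the atrial list had the same order of hearts, with sums of 3130, 510 and 933 CPM. Of its 10 genes 8 were highest in sham 1, as were 37.0% of all rows with at least 1 CPM. Nppa, the atrial natriuretic peptide, led with 1219, 64.4 and 251 CPM, and Kcnk3, a potassium channel, differed little at 356, 371 and 336 CPM. The atrial sum spanned more than Gpx3 did, so that Gpx3 equalled 22.0%, 43.2% and 32.6% of it. The part of atrial tissue in the Gpx3 values was not tested.

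For Sod3 and Nox4, all 11 fibroblast and all 12 endothelial markers were lowest in sham 2, as these genes were. So were 48.8% of all rows with at least 1 CPM. The sums of both lists were highest in sham 3, as was Nox4. Sod3 was highest in sham 1 and had the order of hearts of the atrial sum. Dcn, a matrix proteoglycan, stood at 953, 593 and 948 CPM, and Col3a1, a fibrillar collagen, at 314, 88.1 and 414 CPM. Kdr, a VEGF receptor, stood at 393, 302 and 458 CPM. Nox4 fell further than either list, from 0.178% and 0.169% of the fibroblast sum in sham 1 and 3 to 0.0331% in sham 2. The summed markers of smooth muscle and pericytes (1650, 1708 and 2015 CPM) were not lowest in sham 2, nor were those of adipocytes (266, 342 and 329 CPM). By gene, however, 7 of the 10 smooth muscle and pericyte markers were lowest in sham 2. So were 4 of the 6 adipocyte markers with at least 1 CPM. Rgs5 (711, 726 and 718 CPM) and Abcc9 (436, 565 and 566 CPM) made up much of the first sum. Plin4 (225, 310 and 281 CPM) made up most of the second. The part of these cell types in the Nox4 and Sod3 values was not tested.

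**Figure D5:**
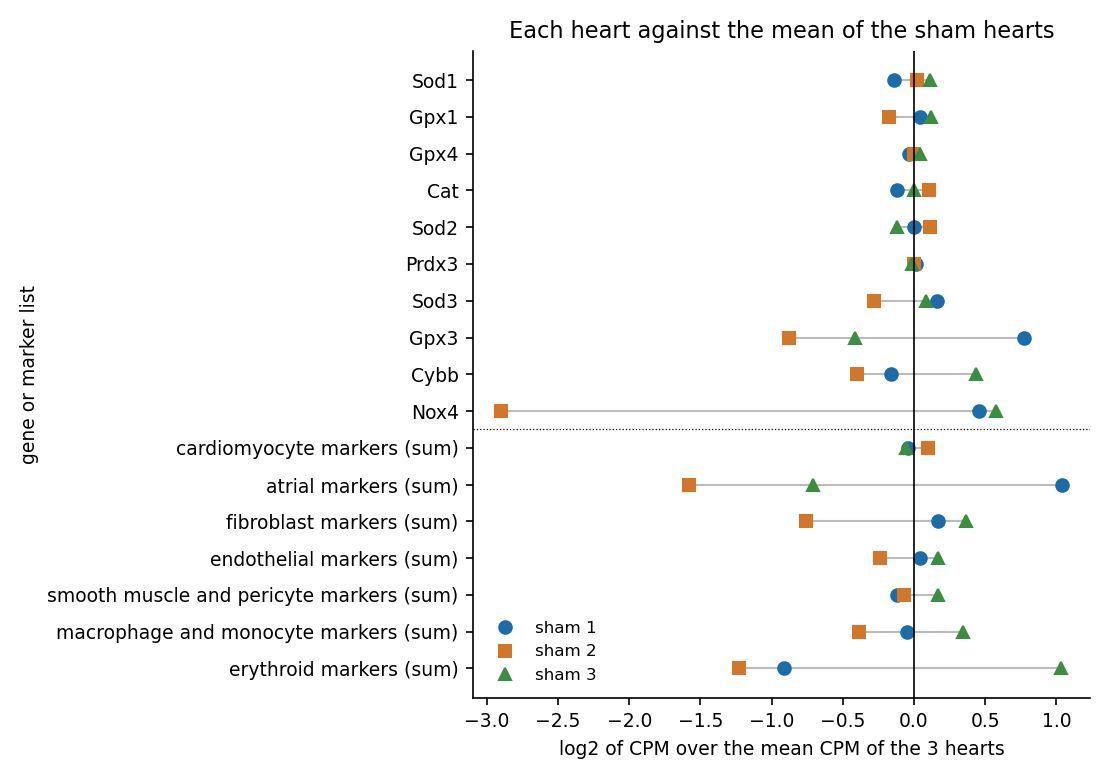
The horizontal axis is the log2 of each heart's CPM over the mean of the 3 sham hearts, for the members and, under the dotted line, for the summed CPM of marker lists. Symbols are hearts. Cybb has the same order of hearts as the macrophage list and Gpx3 the same as the atrial list, and the sham 2 symbol of Nox4 lies farthest to the left.

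The partners of the oxidases were read next. Cyba (p22phox), the membrane subunit that NOX2 and NOX4 both need, held 329, 240 and 313 counts, a mean of 26.3 ± 4.47 CPM (SD, n = 3). Of the cytosolic subunits that switch NOX2 on, Ncf1 (p47phox) was at 6.77 ± 2.42 CPM, Ncf4 (p40phox) at 1.96 ± 0.866 and the blood-cell GTPase Rac2 at 6.41 ± 2.59. Ncf4 and Rac2 were highest in sham 3, like Cybb, and Ncf1 in sham 1 with 89, 42 and 99 counts. Rac1, the widely expressed GTPase, was at 248 ± 24.5 CPM and Poldip2, a NOX4-binding protein, at 170 ± 3.70. Poldip2 therefore varied by a CV of 2.18% between the hearts among which Nox4 varied by 75.3%.

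The other catalytic subunits in the table did not reach 1 CPM on average. Nox1 gave 0 counts in each heart, which allows up to 0.286 CPM, for counting error only. Duox1 gave 9, 7 and 6 counts and Duox2 14, 6 and 12. Of other oxidant sources, Xdh (xanthine dehydrogenase) rested on 1170, 1691 and 2841 counts, or 112, 161 and 224 CPM. Its CV was 34.0%, with the highest value in sham 3. Maob and Maoa, the monoamine oxidases of the outer mitochondrial membrane, were at 90.8 ± 10.8 and 8.08 ± 1.98 CPM. Mpo, the neutrophil myeloperoxidase, gave 1 count in all.

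Among the other enzymes of peroxide removal, all 5 other peroxiredoxins reached 1 CPM, as did 71.6% of all rows, and 4 exceeded 100 CPM. Prdx5, found in mitochondria, peroxisomes and cytosol, stood at 393 ± 3.53 CPM, the cytosolic Prdx2 at 342 ± 24.1 and Prdx1 at 292 ± 12.7. Their list had a median CV of 4.35%. Of the other glutathione peroxidases, Gpx8 was at 24.4 ± 3.98 CPM and Gpx7 at 6.24 ± 1.36, both endoplasmic reticulum enzymes without selenium. Both were lowest in sham 2, and their CVs were 16.3% and 21.9%.

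The thioredoxin and glutathione systems return electrons to these enzymes. Txn2, the mitochondrial thioredoxin that reduces Prdx3, was at 284 ± 16.8 CPM, and Txnrd1, a cytosolic thioredoxin reductase, at 76.3 ± 3.98. Txnip, which binds and blocks thioredoxin and responds to glucose, held 11938, 5618 and 10595 counts. Its CV was 36.0%, with sham 1 highest and sham 2 lowest, as for Gpx3. All 8 genes of glutathione synthesis and recycling exceeded 1 CPM, with a median CV of 6.07%. Glrx3 stood at 127 ± 4.48 CPM, Glrx5 at 62.7 ± 5.07 and Glrx2 at 30.4 ± 2.85, all of them glutaredoxins.

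NADPH is the common source of those electrons and also the substrate of the oxidases. Idh2, the mitochondrial NADP-dependent isocitrate dehydrogenase, stood at 2523 ± 177 CPM, Nnt, the transhydrogenase of the inner mitochondrial membrane, at 687 ± 87.3 and Me1, the cytosolic malic enzyme, at 175 ± 17.1. G6pdx, the first enzyme of the pentose phosphate pathway, was at 11.8 ± 2.08 CPM, and it was named here after its value was seen. The first 2 serve the matrix, where Sod2 and Prdx3 act, and the last 2 the cytosol.

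Nfe2l2 (NRF2), the factor that raises many of these genes on oxidant stress, was at 83.2 ± 6.24 CPM. Hmox2, the constitutive haem oxygenase, was at 75.6 ± 5.49 and Nqo1, a quinone reductase under NRF2 control, at 73.1 ± 10.4. All 8 genes of metal delivery and selenoprotein synthesis exceeded 1 CPM. Selenop, a secreted selenium carrier, stood at 416 ± 53.7 CPM, Sephs2, which makes the selenium donor, at 34.8 ± 3.42 and Atox1, a copper chaperone, at 25.3 ± 5.60. Over all lists, 57 of 64 listed genes were in the table under the symbols used, 52 reached 1 CPM and 15 reached 100 CPM, against 71.6% and 9.73% of all rows. Their median was 29.6 CPM and their median CV 9.76%, against 10.5 CPM for all rows and a CV of 11.8% for rows with at least 1 CPM.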

How the data were processed

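Total RNA of mouse hearts was sequenced, and the authors deposited 1 table of raw counts per gene symbol, whole numbers with 1 column per library. The submitters' processing notes name the build mm9 and the tools HISAT2, HTSeq, DESeq and Trimmomatic. Their versions and settings, the use of strand and the gene models are not given in the sources used. Columns were matched to samples by title. Nothing in the labels says that replicates are separate animals, so SDs may be partly technical.

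CPM was the count over the column total, times 1000000, with no filter, and levels are means over 3 sham columns of 10474487 to 12669724 counts. Coding and transcript lengths, and selenocysteine codons, came from GENCODE M21 by gene name, with no coordinates carried over. The protein table planned for lengths was not used here, so the GENCODE lengths were chosen after seeing the data. No exon of another gene in that annotation overlapped a member's exons. TMM (edgeR 4.0.16) and DESeq2 1.42.0 size factors, in R 4.3.3, were alternative scalings. Intervals are exact Poisson at 95%. The CV calculation was tested on simulated data. No test between groups was made.

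Pathway and marker lists, the members and the rule for named genes were chosen with earlier results of these data known. The rule named the members, the NADPH oxidase partners, the 3 highest genes of each pathway list and the 2 highest of each marker list, and not all of these are reported here.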

Additional observations from a re-analysis of the deposited data

How the results depend on the processing

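No paired analysis was possible because no result comes from a test between groups. Member levels moved by less than 1 SD in all 60 alternatives, though with 3 hearts the mean of the other 2 is always within 1 SD of the full mean. With no length correction the log2 ratio became 1.62 for Sod2 to Sod1, 1.90 for Sod1 to Sod3, -1.16 for Prdx3 to Sod2 and -0.045 for Cat to Prdx3. With transcript length it became -1.57 for Sod2 to Sod1 and 0.83 for Prdx3 to Sod2, both with the sign turned, 2.87 for Sod2 to Sod3, 4.44 for Sod1 to Sod3 and -0.87 for Cat to Prdx3. The other ratios under these settings, and all 9 with 0.5 counts added, moved by less than 1 SD. With no length correction the compartment sums were 850.2 (cytosol), 319 (peroxisome), 1062 (mitochondrion) and 18.3 (membrane). With transcript length they were 1000.3, 122, 347 and 4.02, and 271 for the extracellular genes. With Gpx4 in the mitochondrion they were 661 (cytosol) and 2415 (mitochondrion). The length of the transcripts in use was not measured, and the settings with transcript length, and sums with no length, were added after seeing the data.

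Of 40 alternatives for the CVs, 13 moved the value by at least 1.5 times, 10 of them by leaving out a heart. Without sham 1 the CV of Gpx3 was 22.5% and that of Sod1 4.51%. Without sham 2 it was 6.06% for Nox4, 3.95% for Sod3 and 3.81% for Gpx1, and without sham 3 it was 11.6% for Cybb. TMM moved the CV of Gpx1 to 6.51%. With at least 3 counts in every heart as the limit, 2 of the other oxidase subunits counted as measured, where 0 averaged 1 CPM. Of the members, Nox4 rests on the fewest counts, and depth limits it most.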
